A study of Mus musculus with 4 samples.

Results

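The 10 genes described here are the TNF ligand gene Tnf, its receptor genes Tnfrsf1a and Tnfrsf1b, the NF-κB subunit genes Nfkb1, Nfkb2, Rel and Relb, and the feedback inhibitor genes Nfkbia, Nfkbiz and Tnfaip3. They were chosen by role (subunits, feedback inhibitors, and TNF with its receptors) from the 32285 genes of the deposited tables. Each was followed as unique molecular identifiers (UMIs, counted RNA molecules) per cell class and library in droplet-based single-cell RNA sequencing of mouse cortex. All mice were male C57BL/6N aged 10 months. The 4 groups were sham surgery with an isotype control antibody, dMCAO stroke (distal occlusion of the middle cerebral artery) with isotype control, stroke with an antibody to the endothelial adhesion molecule VCAM1, and stroke with an antibody to its leukocyte integrin ligand VLA4, each antibody given for 10 weeks. The tissue was the lesion core with about 2 mm of cortex around it, pooled from 4 to 5 mice into 1 library per group. Dead cells were gated out and the rest were labelled by CD31 (endothelium) and CD45 (leukocytes). Which stained fractions were collected is not given in the sources used here. With 1 library per group no difference has a replicate check, so every difference is one between libraries, and all intervals are 95% intervals that cover counting error only.

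NF-κB is a family of dimeric transcription factors held inactive in the cytoplasm by IκB proteins. TNF binding to its receptors activates the IκB kinase, IκBα is degraded, and the freed dimers enter the nucleus. Many of their target genes encode inhibitors of the same pathway, among them IκBα itself (Nfkbia) and the ubiquitin-editing enzyme A20 (Tnfaip3), so that the response limits itself. In brain, microglia are the main resident source of TNF, and endothelial cells respond to it with adhesion molecules such as VCAM1.

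After filtering, 1516 cells were kept for sham isotype, 2832 for stroke isotype, 4662 for stroke anti-VCAM1 and 6209 for stroke anti-VLA4, with median totals of 4517 to 5466 UMIs per cell. The sham isotype and stroke isotype libraries shared 53 cell barcodes, against 1 to 7 in the other pairs of libraries. In 49 of the 53 the stroke isotype copy held under 10% of the UMIs of the sham copy, and those copies made up 0.198% of the UMIs kept in stroke isotype. Leaving out every barcode found in more than 1 library moved a single ratio given below beyond its interval, that of Tnf in border-macrophage-like cells after stroke (from -0.24 to -0.47). Marker genes named 6051 microglia-like, 5488 endothelial-like, 633 T-cell-like and 477 border-macrophage-like cells, each class having 50 cells or more in every library. In 3 clusters 1867 cells stayed unnamed, 6.40% of sham isotype, 6.21% of stroke isotype, 13.5% of anti-VCAM1 and 15.5% of anti-VLA4. The largest (1157 cells) held all 8 endothelial markers, with the arterial genes Gkn3, Sema3g and Hey1 among its leading genes. Another (401 cells) held 4 microglia markers, with Trem2 and C1qb among its leading genes. The endothelial-like and microglia-like classes thus leave out some cells that carry their markers. All 8 markers of microglia and all 8 of endothelium were detected in every cluster of those names.

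For 8 of the 10 genes most UMIs were found in microglia-like cells, with Nfkbia and Nfkb2 (39.4%) as the exceptions. Microglia-like cells held 42.8% of all UMIs but 77.1% of the 8019 Tnf UMIs, 74.5% of those of Tnfaip3, 72.6% of those of Rel, 71.1% of those of Nfkbiz and 70.9% of those of Tnfrsf1b. Endothelial-like cells, with 30.3% of all UMIs, held 0.274% of the Tnf UMIs and 2.17% of those of Nfkbiz. They held 38.2% of the UMIs of Nfkbia, more than the 35.8% in microglia-like cells. Levels are UMIs per 1000000 UMIs of the class (CPM), and class levels here are means over the libraries. The mean Tnf level was 258 CPM in border-macrophage-like, 186 CPM in T-cell-like and 177 CPM in microglia-like cells, against 0.799 CPM in endothelial-like cells. Nfkbiz, which encodes the nuclear IκBζ, had its highest mean level in border-macrophage-like cells, at 805 CPM. Tnfaip3 was highest in T-cell-like cells, at 378 CPM. The Nfkbia level was 1053 CPM in dendritic-like cells, 799 CPM in endothelial-like, 753 CPM in border-macrophage-like and 607 CPM in microglia-like cells. The receptor genes were highest in neutrophil-like cells, with 154 CPM of Tnfrsf1a and 276 CPM of Tnfrsf1b, but that class had only 70 cells. Tnfrsf1a, the broadly expressed receptor, averaged 93.8 CPM in pericyte-like cells, where Tnfrsf1b stood at 6.00 CPM. That Tnfrsf1a mean covers libraries from 26.0 to 187 CPM, the smallest with 10 pericyte-like cells. With the libraries summed it was 77.4 CPM, against 81.4 CPM in border-macrophage-like and 70.9 CPM in microglia-like cells.

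**Figure D1:**
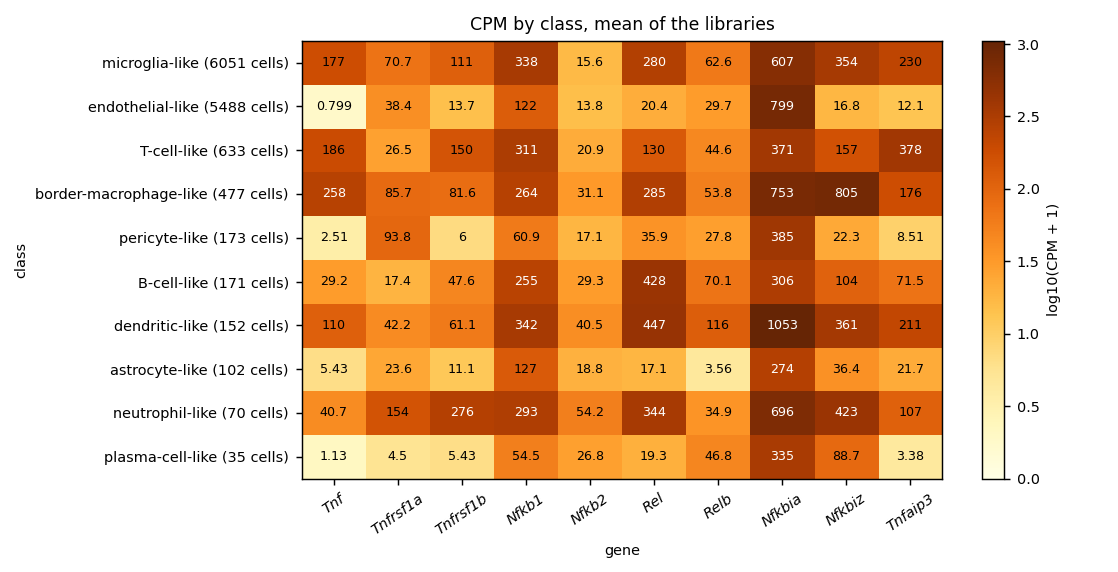
Level of each of the 10 genes (columns) in each named cell class (rows, with the number of cells), as the mean over libraries in CPM, printed in each cell of the grid and coloured on a log10(CPM + 1) scale. Tnf is near 0 in endothelial-like cells (0.799 CPM), where Nfkbia stands at 799 CPM.

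In microglia-like cells the ligand and its receptors behaved differently across the libraries. Tnf stood at 169 CPM (860 UMIs) in sham isotype, 235 CPM (2114 UMIs) in stroke isotype, 195 CPM (1868 UMIs) in anti-VCAM1 and 107 CPM (1337 UMIs) in anti-VLA4. Stroke isotype was the highest library and anti-VLA4 the lowest, and no 2 of the 4 intervals overlapped. Tnfrsf1a, which encodes the receptor with a death domain, stood at 70.7, 67.7, 71.7 and 72.8 CPM in sham isotype, stroke isotype, anti-VCAM1 and anti-VLA4. Tnfrsf1b, the receptor gene expressed chiefly by immune cells, stood at 115, 102, 112 and 114 CPM in the same order. In these class sums the receptor levels thus stayed within narrow ranges while that of the ligand did not. With each cell thinned to 1000 UMIs the range of Tnfrsf1a was wider. Its log2 ratio was then -0.49 for stroke isotype over sham isotype and 0.63 for anti-VLA4 over stroke isotype.

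Among the subunit genes, Nfkb1 (p105 and p50) stood at 375, 347, 320 and 309 CPM, and Nfkb2 (p100 and p52) at 18.5, 15.9, 15.8 and 12.2 CPM, in the order sham isotype, stroke isotype, anti-VCAM1 and anti-VLA4. Rel, which encodes c-Rel, stood at 323, 304, 263 and 228 CPM. Relb, a subunit of the non-canonical pathway, stood at 77.6, 72.2, 55.6 and 45.0 CPM. Each of the 4 subunit genes was highest in sham isotype and lowest in anti-VLA4. For Nfkb2, Rel and Relb, though, the interval of the ratio of stroke isotype to sham isotype left room for no difference. Among the inhibitors, Nfkbia stood at 750.3, 674, 612 and 392 CPM, and Nfkbiz at 471, 414, 319 and 212 CPM, in the same order of libraries. Tnfaip3 stood at 254, 297, 190 and 180 CPM. For all 3 inhibitor genes the 2 antibody libraries lay below both isotype libraries.

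**Figure D2:**
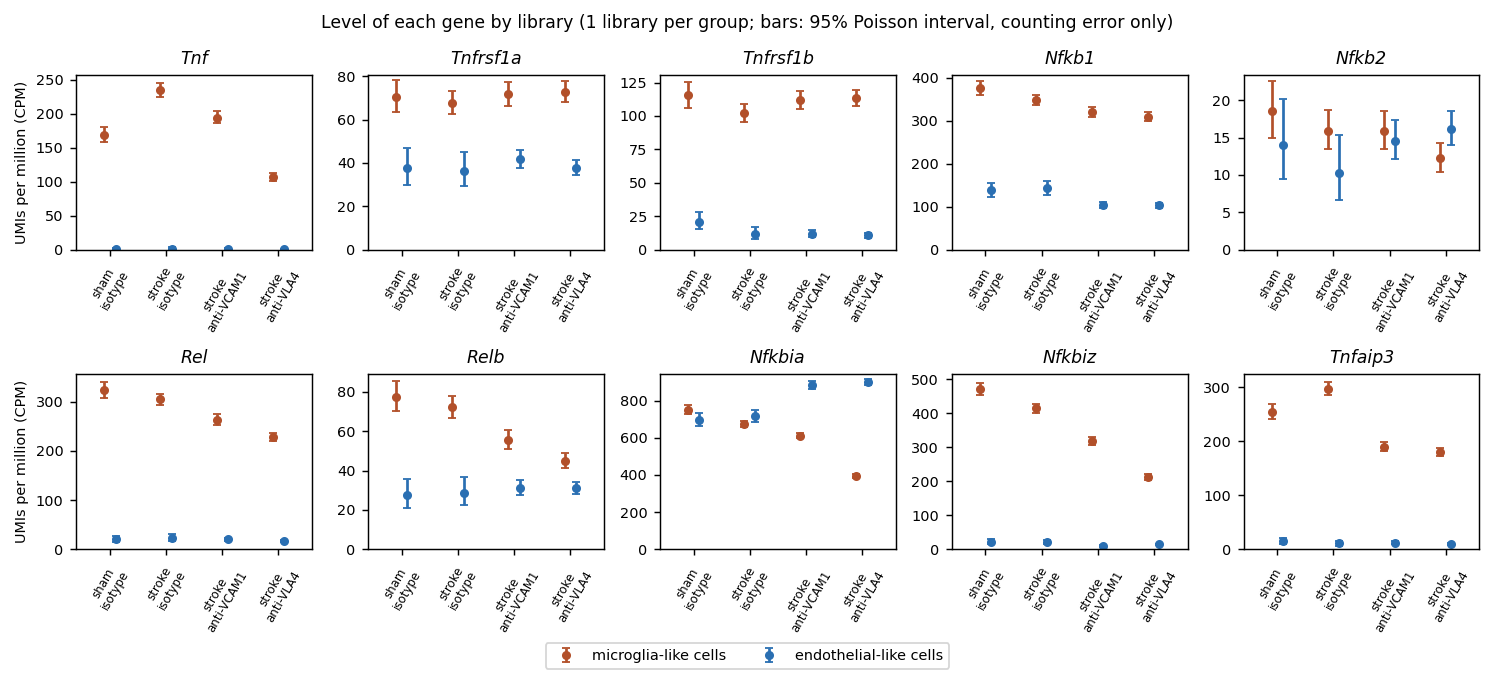
CPM (linear axis from 0) for each gene in the 4 libraries, in microglia-like (brown) and endothelial-like (blue) cells; points are class sums of 1 library and bars are 95% Poisson intervals that cover counting error only. In microglia-like cells Tnf, Nfkbia and Nfkbiz are lowest in anti-VLA4, at 107, 392 and 212 CPM.

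Shares of cells with a UMI, taken after thinning each cell to 1000 UMIs, followed the same order. A Tnf UMI was found in 9.29% of microglia-like cells of sham isotype, 13.6% of stroke isotype, 11.4% of anti-VCAM1 and 7.42% of anti-VLA4 (1, 20, 22 and 32 shallower cells left out). The unthinned shares were 33.0%, 33.8%, 26.5% and 18.9%. Endothelial-like cells gave the background for Tnf: 4 of 1901 thinned cells had a Tnf UMI with anti-VCAM1 (0.210%), and 0 of 452, 0 of 516 and 0 of 2413 in sham isotype, stroke isotype and anti-VLA4, which allows shares of up to 0.664%, 0.581% and 0.124% when 3 cells are taken as the limit of a count of 0, at median depths of 3719 to 4191 UMIs against 5345 to 7379 UMIs in microglia-like cells. The thinned share for Nfkbia in microglia-like cells was 42.9%, 38.2%, 33.9% and 22.8%, and for Nfkbiz 30.1%, 26.2%, 21.7% and 14.4%. Tnf was concentrated in few cells, since the 10 cells with the most Tnf UMIs held between 16.9% and 25.3% of its UMIs in the 4 libraries.

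Stroke against sham, both with isotype control, asks what the lesion itself changed. A gene is called past the fold when its log2 ratio (pseudocount 1 CPM) is at least 0.5 in size with an interval that leaves out 0, given at least 20 UMIs over both libraries. In microglia-like cells none of the 10 genes passed, where 5.34% of the 12158 genes measured did (2.67% upwards and 2.66% downwards). The median ratio of the 10 genes was -0.11, beside -0.03 for all genes. Tnf came nearest, with a log2 ratio of 0.47 (0.36 to 0.59). Tnfaip3 followed at 0.23 (0.13 to 0.32), and Nfkbiz (-0.18) and Nfkbia (-0.15) lay below 0. Leaving out the cell with the most UMIs of each gene took Tnf past the fold. So did leaving out cluster 0, the cluster highest in genes of the dissociation stress response, with which Tnf came to 0.89 and Tnfaip3 to 0.61. Over the alternatives the Tnf ratio ran from 0.30 to 0.89, and it was past the fold in 5 of the 12 with an interval. With cluster shares held at those of sham isotype it was 0.41.

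Anti-VCAM1 and anti-VLA4 were each set against stroke with isotype control, so these comparisons share their control library. With anti-VCAM1, 1 of the 10 genes passed in microglia-like cells, where 4.34% of 12641 genes passed, 2.56% upwards and 1.79% downwards. Tnfaip3 fell from 297 to 190 CPM, a log2 ratio of -0.64 (-0.73 to -0.56). Nfkbiz at -0.38 (-0.45 to -0.31), Relb at -0.37 (-0.54 to -0.21), Tnf at -0.27 (-0.37 to -0.18) and Rel at -0.21 (-0.29 to -0.13) had intervals below 0 without reaching the fold. The median of the 10 genes was -0.17, beside 0.04 for all genes.

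With anti-VLA4, 5 of the 10 genes fell past the fold in microglia-like cells, where 5.83% of 12883 genes passed, 2.79% upwards and 3.04% downwards. Tnf, the cytokine gene, fell from 235 to 107 CPM, a log2 ratio of -1.13 (-1.24 to -1.04). Nfkbiz fell by 0.96 on the log2 scale (-1.04 to -0.89) and Nfkbia by 0.78 (-0.83 to -0.73). Those genes encode IκBζ, a nuclear cofactor, and IκBα, the main cytoplasmic inhibitor. Tnfaip3, which encodes A20, fell by 0.72 (-0.80 to -0.64) and Relb by 0.67 (-0.85 to -0.52). All 3 inhibitor genes and the ligand were therefore among the 5. Rel at -0.42 (-0.49 to -0.34), Nfkb2 at -0.35 (-0.72 to -0.04) and Nfkb1 at -0.17 (-0.24 to -0.10) did not reach the fold, and the receptor genes lay above 0, Tnfrsf1a at 0.10 (-0.05 to 0.25) and Tnfrsf1b at 0.15 (0.03 to 0.27). The median of the 10 genes was -0.54, beside 0.06 for all genes. Each of the 5 stayed past the fold in all 12 alternatives that gave an interval. With cluster shares held fixed, described below, Tnf alone stayed over 0.5 in size, with Nfkbiz (-0.499) and Relb (-0.488) just under it.

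**Figure D3:**
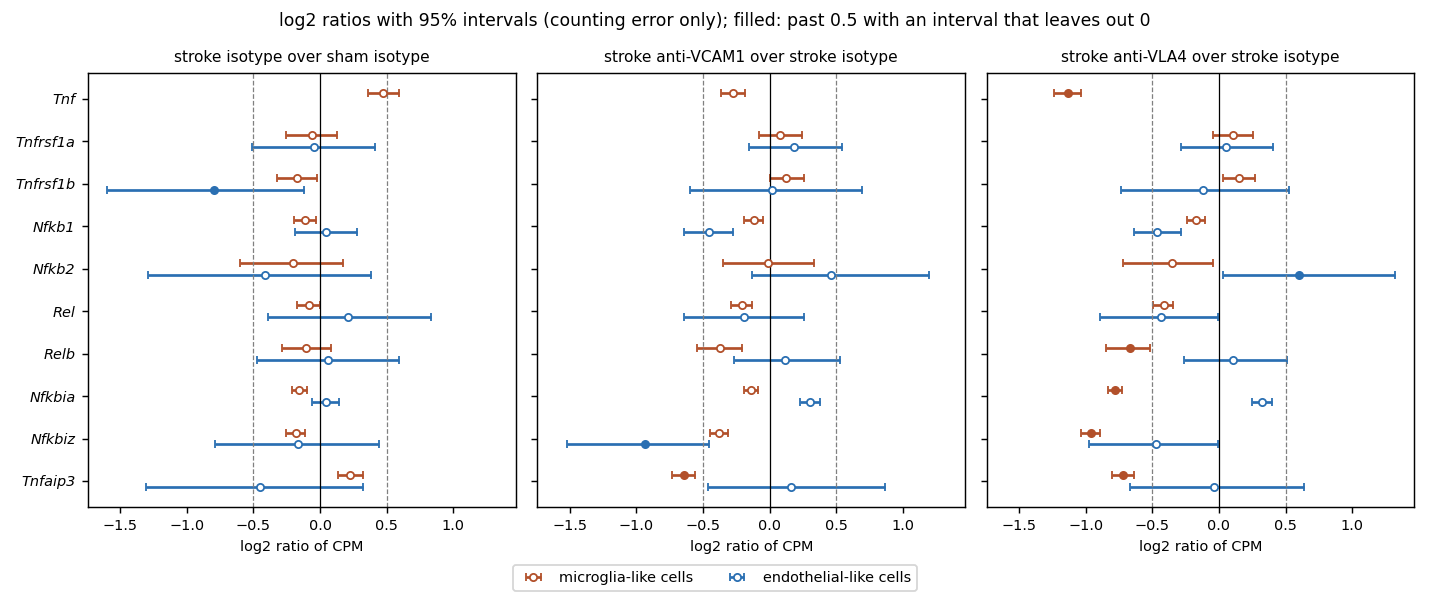
log2 ratio of CPM for each gene in the 3 comparisons (panels), in microglia-like (brown) and endothelial-like (blue) cells, with 95% intervals that cover counting error only; dashed lines mark 0.5 in either direction and filled points are past the fold. Filled microglia-like points are 0 for stroke, 1 for anti-VCAM1 and 5 for anti-VLA4, all to the left of 0.

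The 5 genes that fell with anti-VLA4 are known NF-κB target genes, and their proximal promoters are shown where the reference table held them. RefSeq promoters (GRCm38.p6, the 250 bases before the start) were matched by symbol for 7 of the 10 genes. Of the 5 these were Tnf, Nfkbia and Tnfaip3, and Nfkbiz and Relb had no match. Each is written 5′ to 3′ on the gene's strand, with matches to the κB consensus in capitals.
Tnf, chr17:35202008-35202257, minus strand: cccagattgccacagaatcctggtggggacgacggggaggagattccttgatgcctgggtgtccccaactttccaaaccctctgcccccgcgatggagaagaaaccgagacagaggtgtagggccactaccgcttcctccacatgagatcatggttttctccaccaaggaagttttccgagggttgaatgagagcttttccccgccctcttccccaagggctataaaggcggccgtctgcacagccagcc
Nfkbia, chr12:55492648-55492897, minus strand: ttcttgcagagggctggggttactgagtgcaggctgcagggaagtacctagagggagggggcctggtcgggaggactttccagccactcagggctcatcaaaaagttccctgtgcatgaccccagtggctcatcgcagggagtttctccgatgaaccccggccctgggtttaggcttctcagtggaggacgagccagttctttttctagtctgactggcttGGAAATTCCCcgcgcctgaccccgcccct
Tnfaip3, chr10:19015411-19015660, minus strand: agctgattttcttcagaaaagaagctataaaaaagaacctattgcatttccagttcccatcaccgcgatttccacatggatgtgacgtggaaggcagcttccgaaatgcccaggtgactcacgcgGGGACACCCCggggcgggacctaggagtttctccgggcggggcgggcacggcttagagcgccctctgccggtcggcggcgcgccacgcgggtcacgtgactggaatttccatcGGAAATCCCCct

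The κB consensus is the degenerate ten-letter motif read by NF-κB dimers, searched on both strands. In Nfkbia it matched on the opposite strand, beginning 29 bases before the start. In the Tnfaip3 window shown the consensus matched at 125 bases on both strands and at 12 bases on the opposite strand only. A second Tnfaip3 start in the table, with the window chr10:19011964-19012213, held 0 matches. The Tnf window shown also held 0 matches. Over the 7 genes the consensus was found in 4 (Nfkbia, Tnfaip3, Nfkb2 and Rel), and in 8.23% of 27025 genes with a promoter entry. Of those 4, Nfkb2 and Rel had not reached the fold with anti-VLA4 in microglia-like cells. The search says only which letters stand in these windows. On GRCm38 (GENCODE M21) the genes themselves span chr17:35199381-35202007 for Tnf, chr12:55489410-55492647 for Nfkbia, chr10:19000910-19015657 for Tnfaip3, chr16:55811375-55838899 for Nfkbiz and chr7:19606217-19629438 for Relb, all on the minus strand.

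The microglia-like class was made of 5 clusters whose shares differed between libraries, and whose levels of these genes differed widely. The 10 genes had been left out of the clustering. Cluster 13, with Hcar2, Il1a, Cst7 and Csf1 among its leading genes and high in disease-associated genes (15471 CPM in sum), had the highest levels of Tnf (424 CPM), Nfkbia (1081 CPM), Nfkbiz (591 CPM) and Tnfaip3 (390.5 CPM). Cluster 0, with Il1a among its leading genes and highest in the 24 dissociation stress genes (21954 CPM in sum), had 225 CPM of Tnf and 902 CPM of Nfkbia. Cluster 1, with shallow cells (median 2381 UMIs) and Malat1 at 57848 CPM, had the highest Nfkb1 (472 CPM) and Rel (383 CPM). Cluster 4, lowest in the stress genes (6378 CPM), was lowest in Tnf (46.1 CPM), Nfkbia (195 CPM), Nfkbiz (62.4 CPM) and Tnfaip3 (64.6 CPM). Receptor levels ran otherwise: Tnfrsf1a was highest in cluster 4 (83.5 CPM) and Tnfrsf1b in cluster 1 (133 CPM), with its lowest level in cluster 13 (95.5 CPM).

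Cluster 0 was the largest in sham isotype (46.1%), stroke isotype (38.9%) and anti-VCAM1, and cluster 4 held most in anti-VLA4 (29.8%, against 20.8% in cluster 0). Cluster 4 held 10.0% in sham isotype, 16.4% in stroke isotype and 22.6% in anti-VCAM1. Cluster 13 held 2.65% of the cells in sham isotype and 6.82%, 6.55% and 6.25% in the stroke libraries. The summed level of the stress genes in the class moved with the libraries too, at 19970 CPM in sham isotype, 16740 in stroke isotype, 13412 in anti-VCAM1 and 11684 in anti-VLA4. With anti-VLA4, 13 of the 24 stress genes were past the fold downwards and 0 upwards (median -0.52), among them Egr1 at -1.22 and Egr2 at -0.96. The shares for all genes were 3.04% downwards and 2.79% upwards. Whether the stress genes and the NF-κB genes moved for a shared reason was not tested.

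Part of the anti-VLA4 difference was found within clusters. When the cluster shares were held at those of stroke isotype, the log2 ratio was -0.82 for Tnf, -0.50 for Nfkbiz, -0.49 for Relb, -0.36 for Tnfaip3 and -0.34 for Nfkbia. Of the 5 genes, Tnf and Relb thus kept the largest parts of their ratios and Nfkbia the smallest. Within cluster 4, lowest in stress genes, Tnf was at -0.78 (-1.18 to -0.41), Nfkbiz at -0.85 (-1.20 to -0.52) and Nfkbia at -0.58 (-0.77 to -0.39). Within cluster 1 the ratios of Tnf (-1.19), Nfkbiz (-1.14), Tnfaip3 (-1.07) and Nfkbia (-0.90) were all past the fold. Within cluster 0, Tnf was at -0.89 (-1.05 to -0.74) and Nfkbia at -0.26 (-0.33 to -0.19). Within cluster 13, Tnf was at -0.53 (-0.74 to -0.31) and Nfkbia at -0.22 (-0.36 to -0.09). Cluster 8 was the exception for Tnf, at -0.31 (-0.69 to 0.08), for Tnfaip3, at -0.17 (-0.46 to 0.12), and for Relb, at 0.30 (-0.25 to 0.90). Leaving out cluster 0 left all 5 genes past the fold, with Nfkbiz at -1.25 and Tnfaip3 at -0.95. With anti-VCAM1 at fixed cluster shares Tnfaip3 was at -0.50, Nfkbiz at -0.17 and Nfkbia at 0.07.

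**Figure D4:**
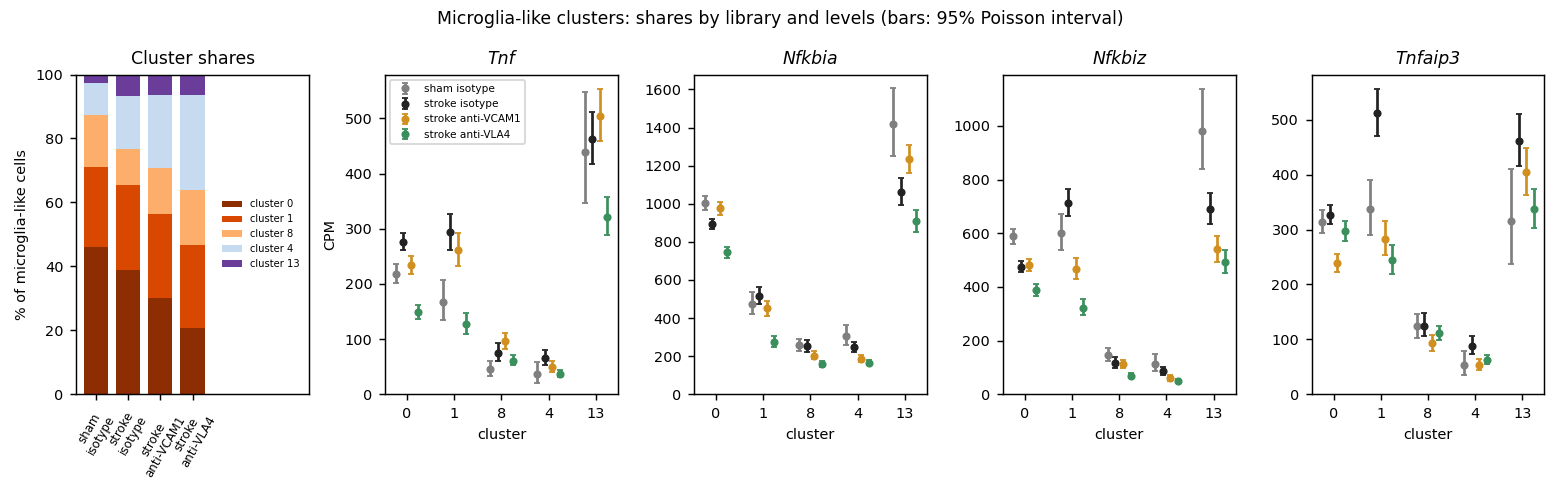
Left, share of microglia-like cells (percent) in each of 5 clusters by library; right, CPM of Tnf, Nfkbia, Nfkbiz and Tnfaip3 in each cluster (x axis) and library (colours), with 95% Poisson intervals that cover counting error only. Cluster 4, with the lowest levels, grows from 10.0% in sham isotype to 29.8% in anti-VLA4, and within clusters 0, 1 and 4 the anti-VLA4 point for Tnf lies below that of stroke isotype.

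Among microglia-like cells the share with a UMI of each inhibitor gene was higher in cells with a Tnf UMI than in the others, though in sham isotype the intervals left only Nfkbia apart. In microglia-like cells thinned to 1000 UMIs, 63 cells of sham isotype, 188 of stroke isotype, 192 of anti-VCAM1 and 165 of anti-VLA4 had a Tnf UMI. Nfkbia was found in 63.5%, 55.3%, 53.6% and 44.2% of those cells, and in 40.8%, 35.5% and 31.4% of the other cells of sham isotype, stroke isotype and anti-VCAM1 and 433 of 2058 of those of anti-VLA4. For Nfkbiz the shares were 34.9%, 43.6%, 37.5% and 33.3% with a Tnf UMI and 29.6%, 23.5%, 19.7% and 12.8% without, so that the 2 shares lay closest in sham isotype. Tnfaip3 was found in 27.0%, 28.7%, 20.8% and 25.5% against 17.1%, 19.8%, 12.5% and 11.4%. The receptor gene Tnfrsf1b ran the other way, at 7.94%, 9.04%, 9.38% and 8.48% against 10.6%, 10.6%, 10.6% and 11.6%, with overlapping intervals in all 4 libraries. Nfkb1 differed little: 33.3%, 31.4%, 26.0% and 31.5% against 29.9%, 28.4%, 26.4% and 27.8%. In T-cell-like cells, with only 12 to 28 Tnf-positive cells per library, the share for Tnfaip3 was lower in cells with a Tnf UMI in all 4 libraries, with overlapping intervals. Cells of 1 library are not replicates, so these shares describe the libraries. The microglia-like clusters were pooled for them, and no share was taken within a cluster. Tnf and the inhibitor genes were all highest in cluster 13 and lowest in cluster 4, and the part of cluster mix in these shares was not tested.

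**Figure D5:**
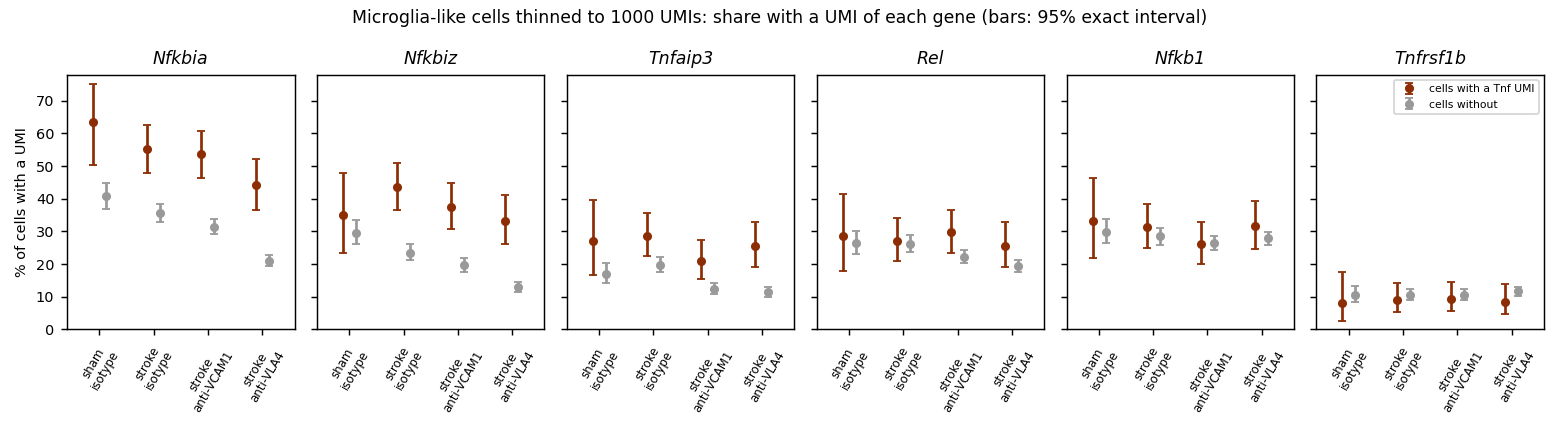
Share of microglia-like cells with a UMI of each gene (y axis, percent, after thinning to 1000 UMIs per cell), among cells with a Tnf UMI (brown) and without (grey), in the 4 libraries (x axis), with exact 95% binomial intervals. For Nfkbia the brown points, from 44.2% to 63.5%, lie above the grey point of their own library in all 4 libraries.

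In endothelial-like cells Tnf was almost not counted, with 1, 2, 10 and 9 UMIs in sham isotype, stroke isotype, anti-VCAM1 and anti-VLA4, and gave no ratio. Nfkbia was the abundant gene of the group, at 696, 717, 884 and 898 CPM in the same order, and the antibody libraries lay above the isotype libraries with intervals that did not overlap. Nfkb1 went the other way, at 139, 143, 104 and 103 CPM. Tnfrsf1a stood at 37.8, 36.5, 41.6 and 37.8 CPM and Relb at 27.6, 28.8, 31.3 and 31.1 CPM, with overlapping intervals. Tnfrsf1b (20.8, 11.6, 11.8 and 10.6 CPM), Nfkbiz (22.8, 20.2, 10.1 and 14.3 CPM), Rel (20.3, 23.6, 20.5 and 17.2 CPM), Nfkb2 (from 10.3 CPM in stroke isotype to 16.1 CPM in anti-VLA4) and Tnfaip3 (15.0, 10.7, 12.1 and 10.4 CPM) were all low. Tnfaip3 and Nfkbiz, abundant in microglia-like cells, were thus low here, with 25 to 129 UMIs of Tnfaip3 and 47 to 176 UMIs of Nfkbiz in a library.

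A single gene of the 9 measured passed in each endothelial comparison. For stroke against sham, where 7.44% of 10244 genes passed (3.84% upwards and 3.6% downwards), it was Tnfrsf1b, which fell by 0.79 on the log2 scale (-1.60 to -0.12). The median of the 9 genes was -0.05, beside -0.02 for all genes. With anti-VCAM1, where 12.1% of 11437 genes passed (2.33% upwards and 9.78% downwards), it was Nfkbiz, which fell by 0.93 (-1.52 to -0.46). The median was 0.12, beside -0.07. With anti-VLA4, where 14.3% of 11770 genes passed (2.71% upwards and 11.6% downwards), it was Nfkb2, which rose by 0.60 (0.03 to 1.32), and the median was -0.04, beside -0.08. These 3 calls rest on 70, 137 and 223 UMIs over both libraries, and each is lost under 2 or more of the other settings, while counts of 1 in 9 lie near the shares for all genes.

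Nfkbia in endothelial-like cells stayed under the fold in both antibody comparisons, at 0.30 (0.23 to 0.38) for VCAM1 and 0.32 (0.25 to 0.40) for VLA4, as did Nfkb1 at -0.45 (-0.64 to -0.27) and -0.46 (-0.64 to -0.29). Both ratios moved with features of the libraries that are not specific to these genes. In the antibody comparisons the log2 ratio ran with gene span, and Nfkbia spans 3.24 kb and Nfkb1 106.9 kb. After that trend was removed Nfkbia was at 0.05 and 0.07 for the VCAM1 and VLA4 antibodies, and Nfkb1 at -0.17 and -0.15. Cluster 3, lowest in Nfkbia (642 CPM), held most endothelial-like cells in sham isotype (50.5%) and stroke isotype (40.2%), and cluster 2 (997 CPM) in anti-VCAM1 (28.9%) and anti-VLA4 (29.3%). Cluster 5, with the highest Nfkbia level (1139 CPM), the highest stress sum (10922 CPM) and Malat1 at 2931 CPM, held 6.64%, 10.2%, 25.4% and 25.6% in sham isotype, stroke isotype, anti-VCAM1 and anti-VLA4. With cluster shares held at those of stroke isotype Nfkbia was at 0.15 and 0.17, and the stress genes summed to 7573, 6718, 8619 and 8757 CPM in the class. Microglia markers, all 8 detected in each library, summed to 72.7, 343, 137 and 122 CPM in endothelial-like cells. Leaving out the 1, 7, 28 and 31 cells with 3 or more of those markers lowered the sums to 71.5, 118, 105 and 101 CPM. Tnfaip3 then stood at 15.1, 8.88, 11.9 and 10.4 CPM and Rel at 20.4, 23.1, 20.1 and 17.1 CPM. Nfkbiz with anti-VCAM1 was then at -0.72 and Tnfrsf1b after stroke at -0.86, both still past the fold, and Nfkb2 with anti-VLA4, at 0.56, was no longer so. Since markers were still counted in the other cells, the full part of microglial RNA in these small counts was not measured.

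In border-macrophage-like cells, macrophages of the meninges and perivascular spaces with 65 to 204 cells per library, Tnf stood at 340 CPM in sham isotype, 289 in stroke isotype, 177 in anti-VCAM1 and 228 in anti-VLA4. Nfkbiz stood at 1091, 797, 650.1 and 681 CPM, and Nfkbia at 963, 658, 758 and 632 CPM. Sham isotype was the highest library for all 3. After stroke 1 of the 10 genes passed, where 9.01% of all genes did (3.75% upwards and 5.26% downwards): Nfkbia fell by 0.55 (-0.69 to -0.41). With anti-VCAM1, where 9.82% passed (5.32% upwards and 4.5% downwards), Tnf fell by 0.70 (-1.07 to -0.36) and Tnfrsf1a rose by 0.61 (0.08 to 1.13). With anti-VLA4, where 12.4% passed (5.71% upwards and 6.65% downwards), Tnfaip3 fell by 0.64 (-1.08 to -0.22), from 169 to 108 CPM. Of these 4 calls, that of Tnf was past the fold in all 11 alternatives, that of Nfkbia in 9, that of Tnfaip3 in 7 and that of Tnfrsf1a in 6, and at resolution 0.5 Tnfaip3 was at -0.14 and Tnfrsf1a at 0.24. Endothelial markers summed to 101, 79.8, 343 and 1858 CPM in these cells. Without the 1, 1, 3 and 8 cells that held 3 or more of those markers, Tnfrsf1a with anti-VCAM1 was no longer past the fold (0.55), Tnfrsf1b with anti-VLA4 was (-0.86), and the other 3 calls stayed. The 10 cells with the most Tnf UMIs held between 43.9% and 73.8% of them, so few cells set these values.

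T-cell-like cells, with 73, 247, 112 and 201 cells in the 4 libraries and Nkg7 among the leading genes of their cluster, had Tnf at 258, 106, 236 and 143 CPM. Stroke isotype was here the lowest library, not the highest as in microglia-like cells. After stroke Tnf fell by 1.28 (-1.64 to -0.94) and Tnfrsf1b by 0.53 (-0.88 to -0.19), and Nfkbiz at -0.96 and Rel at -0.61 were also past the fold, 4 of 10 genes where 17.9% of all genes passed, 4.15% upwards and 13.8% downwards. Without barcodes found in more than 1 library, 3 of the 10 genes fell past the fold after stroke, where 11.4% of all genes passed. With anti-VCAM1, where 10.6% passed (5.15% upwards and 5.49% downwards), Tnf rose by 1.15 (0.80 to 1.52). With anti-VLA4, where 12.7% passed, 3.5% upwards and 9.16% downwards, Rel fell by 0.93, Nfkbiz by 0.90, Nfkb1 by 0.81 and Nfkbia by 0.52. Microglia markers summed to 2774 CPM in sham isotype and to 889, 1709 and 355 CPM in the other libraries. Leaving out the 8, 13, 13 and 14 cells with 3 or more microglia markers or 3 or more endothelial markers lowered the sums to 78.0, 122, 103 and 118 CPM. The stroke ratios of Nfkbiz and Rel then came to 0.02 and 0.16, so those calls were not kept, while Tnf was at -1.12 and Tnfrsf1b at -0.63. Thinned to 1000 UMIs per cell, Tnf was at -0.65 and Tnfrsf1b at -0.38 after stroke, and none of the 7 genes measured was past the fold. Unthinned and without the 8, 13, 13 and 14 cells, the anti-VLA4 ratios were -0.89 for Nfkb1, -0.86 for Nfkbiz, -0.82 for Rel and -0.56 for Nfkbia. The anti-VCAM1 ratio of Tnf was 1.23 in the same setting. In the thinned cells Nfkbia with anti-VLA4 was at 0.003. In sham isotype 10 cells held 69.4% of the Tnf UMIs of the class.

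Other genes of the pathway were taken from lists chosen by role. In microglia-like cells with anti-VLA4, 18 of 21 classical NF-κB target genes were measured, of which 8 fell and 1 rose past the fold (median -0.49). Of all genes measured there, 3.04% fell and 2.79% rose. The chemokine gene Ccl3 fell from 539.5 to 290 CPM, a log2 ratio of -0.89 (-0.96 to -0.83), and the adhesion molecule gene Icam1 from 283 to 155 CPM, a ratio of -0.86 (-0.95 to -0.78). Of 5 other subunit and IκB genes 2 fell: Nfkbid, which encodes the nuclear inhibitor IκBNS, at -0.79 (-0.89 to -0.70), and Bcl3 at -0.68 (-1.10 to -0.37). Among 13 receptor adaptor genes the inhibitor-of-apoptosis gene Birc3 fell by 0.68 and 1 gene rose (median 0.02). None of the 10 kinase genes (median -0.02) or of the 8 deubiquitinase and partner genes (median 0.02) passed, and of 9 measured TNF superfamily genes 1 rose and 0 fell (median 0.10). The IκB kinase and adaptor genes thus had medians close to that of all genes, 0.06, and the targets and feedback genes did not.

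With anti-VCAM1 in microglia-like cells 3 of 18 targets fell and 1 rose (median -0.20), where 1.79% of all genes fell and 2.56% rose. Cxcl10, which encodes an interferon-induced chemokine, fell by 1.32 (-1.75 to -1.06) and Vcam1 by 0.80 (-1.03 to -0.61), and Birc3 fell by 0.55 (-0.68 to -0.42). After stroke 6 of 17 measured targets rose and 1 fell (median 0.28), where 2.67% of all genes rose and 2.66% fell. Il1b, the interleukin-1β gene, was at 1.14 (0.91 to 1.41) and Csf1, a microglial growth factor gene, at 1.05 (0.92 to 1.20). In endothelial-like cells 5 of 10 targets fell with anti-VCAM1 (median -0.43), where 9.78% of all genes fell. With anti-VLA4, where 11.6% of all genes fell and 2.71% rose, 6 of 13 targets fell and 2 rose (median -0.46). Vcam1, the gene of the antibody's target, was at -0.77 (-1.15 to -0.43) for the VCAM1 antibody and -1.36 (-1.79 to -1.05) for the VLA4 antibody, and it had also fallen by 1.20 after stroke. Icam1 was at -0.53 (-0.93 to -0.15) and -0.72 (-1.12 to -0.36) in the same comparisons. Birc3 and Traf3, genes of TNF receptor adaptors, fell in both antibody comparisons, by 0.60 and 0.68 for the VCAM1 antibody and by 0.57 and 0.66 for the VLA4 antibody. From these endothelial ratios the trend with gene span was not removed.

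Over 59 combinations of cluster and library with at least 50 cells, the genes whose levels ran most like each member were ranked by Pearson's r of log2(CPM + 1). These points share libraries, depth and cell type, so r is a description. Tnf ran most like Neurl3 (r = 0.97), Ccl4 (0.96) and Bcl2a1b (0.96). Rel ran most like Rasgef1b (0.97), Cd86 and Fgd3, and Tnfrsf1b like Prex1 (0.97), Cmip and Celf2. Nfkbiz ran most like Egr2 (0.94), Plekho2 and Btg2, Tnfaip3 like Rab8b (0.94), Neurl3 and Ildr1, and Nfkb1 like St3gal3 (0.94), Ankrd44 and Man1a. Nfkbia stood apart, with Ier2 (0.85), Ier3 (0.84) and Sertad1 (0.78) as its nearest genes. Ier2 and Ier3, and the Egr2 and Btg2 nearest to Nfkbiz, are on the dissociation stress list. Among the members themselves Tnf and Tnfaip3 ran most alike (0.95), and Nfkbia had a negative r with Tnf (-0.33), Nfkb1 (-0.38) and Tnfrsf1b (-0.53). These r span cell classes: endothelial-like clusters held 642 to 1139 CPM of Nfkbia beside 0.553 to 1.09 CPM of Tnf. Among microglia-like clusters, cluster 13 was highest and cluster 4 lowest in both genes. The nearest genes of Relb (Ifrd1, 0.79), Tnfrsf1a (Calr, 0.78) and Nfkb2 (Plac8, 0.67) had lower values.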

How the data were processed

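Raw UMI counts for each gene in each barcode were deposited, and the file headers give Cell Ranger 7.0.1 as their software. The submitters' processing notes name Cell Ranger 6.0.0, Seurat 4.3.0.1, mm10 and GRCh38, so the version they give differs from that in the headers. The submitters' processing notes do not say which build served this table, and gene spans and coordinates are those of GENCODE M21 (GRCm38), matched by gene ID. The kit was Chromium 3′ v3.1, aimed at 10000 cells. Total UMIs over deposited barcodes were 10008987, 17130182, 25099141 and 34721356 for sham isotype, stroke isotype, anti-VCAM1 and anti-VLA4.

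The remaining steps used scipy 1.17.1, numpy 2.4.6, Python 3.11.15, scanpy 1.11.5, leidenalg 0.10.2 and statsmodels 0.14.6. Barcodes needed 500 UMIs, 200 genes and no more than 10% of UMIs from mitochondrial genes, and cells marked by scrublet (expected rate 0.05; 0.590%, 0.840%, 1.23% and 1.96% of the libraries) were left out. Cells were clustered together (2000 variable genes, 30 components, 15 neighbours, Leiden resolution 1) without the 10 genes, the other list genes unless they were markers, and mitochondrial, ribosomal and haemoglobin genes. A cluster took a class name from at least 3 markers, each found in 25% or more of its cells and at a log2 fold of 1 or more, unless another class had as many markers among its top 10 genes or 5 detected markers. The rule that left 1 cluster with endothelial and pericyte markers unnamed was settled after the clusters had been seen. UMIs were summed per class and library. CPM has exact Poisson intervals, shares Clopper-Pearson intervals, and log2 ratios, taken with a pseudocount of 1 CPM, binomial intervals conditional on the sum, all at 95%. With 1 library per group there is no test across samples. The steps were checked on simulated counts.

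The 10 genes, the other lists and the tests were chosen with earlier results of these data known. Named were all 10 genes, up to 2 genes of each list per comparison with the largest ratio and at least 200 UMIs, and the 3 genes most like each member. Genes that lead clusters, and Malat1, were named after their values were seen.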

Additional observations from a re-analysis of the deposited data

How the results depend on the processing

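No paired analysis was possible because each group is 1 library, and for the same reason no replicate could be left out. In microglia-like cells the count of 5 genes past the fold with anti-VLA4 became 7 with thinned cells, 6 lower and 1 higher (Tnfrsf1a at 0.63). It was 5 under the other alternatives that gave an interval. With cluster shares held fixed, which gives no interval, only Tnf of those 5 was over 0.5 in size, with Nfkbiz (-0.499) and Relb (-0.488) just under it. The stroke count of 0 became 1 with doublets kept and cells reclustered, and with cells thinned to 1000 UMIs. It was also 1 with the median ratio set to 0 and without the highest cell, and 2 without the cluster highest in stress genes. The anti-VCAM1 count of 1 became 2 without that cluster. In endothelial-like cells the stroke count of 1 became 0 with doublets kept and cells reclustered, and with thinned cells. It was also 0 with at least 100 UMIs per gene and with the unnamed arterial cluster counted as endothelial-like. After that reclustering 359, 426, 1320 and 1634 cells were endothelial-like in sham isotype, stroke isotype, anti-VCAM1 and anti-VLA4. Before it they were 467, 550, 1979 and 2492, and fewer cells had stayed unnamed. The anti-VCAM1 count of 1 became 0 where cells were named by their own markers and with thinned cells. The anti-VLA4 count of 1 became 0 with cells of at least 1000 UMIs and at most 5% mitochondrial UMIs. It was also 0 with doublets kept and cells reclustered, at resolution 0.5 and where cells were named by their own markers. The same held with the gene span trend removed and without cells with markers of another class. The cause was not tested. In T-cell-like cells the anti-VLA4 ratio of Nfkbia turned to 0.0278 where cells were named by their own markers and 0.00299 with thinned cells, and without cells with markers of another class the stroke ratios turned to 0.0218 for Nfkbiz and 0.16 for Rel. Leaving out shared barcodes or cells with markers of another class, counting the arterial cluster, and fixing cluster shares were chosen after seeing the data. The 3 calls in endothelial-like cells rest on 70 to 223 UMIs over both libraries.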

Other observations

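The smaller leukocyte classes, with too few cells for ratios, held high levels of some of these genes. In dendritic-like cells (19 to 78 per library) Nfkbia stood at 949 CPM in sham isotype, 958 in stroke isotype, 1436 in anti-VCAM1 and 872 in anti-VLA4, with 166 to 852 UMIs. Relb, a subunit gene tied to dendritic cell maturation, stood at 73.5, 159, 154 and 78.8 CPM in the same order. In B-cell-like cells (15 to 87 per library) Rel, which encodes c-Rel, stood at 564, 399, 365 and 383 CPM. In neutrophil-like cells (7 to 24 per library) Tnfrsf1b stood at 234, 303, 299 and 267 CPM. These values rest on 13 to 42 UMIs of Tnfrsf1b in a library.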
